A study of Oryza sativa with 16 samples.

Results

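The genes described here carry a bZIP name, that is, a symbol or synonym made of bZIP or OsbZIP and a number in the RefSeq gene table for rice. The table held 19 such genes, 18 of which had a probe set annotated to them alone on the Affymetrix rice array (OsbZIP19 had none). All 18 were above a log2 value of 5 on at least 2 of 16 arrays and were tested, out of 14941 genes with a tested probe set of 1 gene. The rule reads names and not protein domains, so bZIP genes listed under other names were not included. Of the 18 members, 11 also carried a TGA or LG2 synonym, and 7 did not.

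Seedlings of rice (Oryza sativa, subspecies indica, variety IR64) were grown in hydroponics for 7 days with 14 h of light and 10 h of dark, and then stood for 3 h in water or in a hormone solution. IAA (an auxin) and BAP (a cytokinin) were given at 50 µM, and ABA (abscisic acid), ACC (the precursor of ethylene), SA (salicylic acid) and JA (jasmonic acid) at 100 µM. Each hormone had 2 arrays, and water had 2 sets of 2 arrays, labelled control1 and control2, which makes 8 groups of 2 replicates. The labels do not say whether replicates came from separate cultures, so p-values measure the spread between these samples, which may be technical. Setting each hormone against water shows which bZIP transcripts changed within those hours.

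Proteins of the bZIP family bind DNA through a basic region and pair through a leucine zipper, and many recognise sites built around ACGT. The ABA-related group, to which OsbZIP23 belongs, is switched on by SnRK2 kinases and drives genes for drought and salt tolerance. TGA factors bind TGACG elements and, in Arabidopsis and rice, work with NPR1-type co-regulators of the salicylic acid response. Another set, with OsbZIP39, OsbZIP50 and OsbZIP60, takes part in the response to unfolded proteins in the endoplasmic reticulum, where the OsbZIP50 transcript is spliced outside the nucleus. The arrays report transcript amount, so neither that splicing nor phosphorylation was measured.

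The water control sets differed at 21.1% of tested probe sets. The poly-A spike-in RNAs of control1, IAA and BAP differed from those of the other groups, by a narrow margin. The 5′ minus 3′ signal of the poly-A spike-ins ran from -1.56 to -1.22 log2 units on those 6 arrays, from -1.17 to -0.63 on the 8 arrays of control2, ACC, SA and JA, and from -0.74 to -0.71 on the ABA arrays. These ranges nearly meet, with IAA replicate 1 at -1.22, SA replicate 2 at -1.17 and JA replicate 2 at -1.15. The hybridization spike-ins placed ABA (10.46 and 10.47) with control1, IAA and BAP (9.97 to 10.83) and not with the others (11.07 to 12.36). Changes are therefore given against all 4 water arrays and then against each control set. Both tested shoot markers were strong on every array. CAB2R, a chlorophyll-binding protein gene, lay between 15.7 and 16.07, and RBCS, a Rubisco small subunit gene, between 13.85 and 14.85. Another listed shoot marker with a probe set, RBCS1, did not pass the signal filter and was not tested, so strong signal holds for CAB2R and RBCS only. RBCS changed by -0.60 log2 units under ABA (limma adjusted p = 0.0116). Both measured root markers, the silicon transporter genes Lsi1 and Lsi2, fell under ABA. The changes were -2.35 ± 0.32 and -6.79 ± 0.56 (SE, adjusted p = 8.42e-05 and 1.54e-06). Lsi2 read 6.17 and 4.22 under ABA, the second below the filter value of 5, so the size of its fall is uncertain. Under BAP Lsi1 changed by -1.50 (adjusted p = 0.0452), and Lsi2 read 9.2 and 10.06 against 11.27 to 12.61 in water (adjusted p = 0.0721). Neither BAP difference passed against control1 (-1.21 and -1.86, adjusted p = 0.143 and 0.233), and both passed against control2 (adjusted p = 0.00291 and 0.00527). Under SA Lsi1 changed by -1.20 (adjusted p = 0.0366), with adjusted p = 0.0587 against control1 and 0.0150 against control2. The part of these markers in the bZIP results was not tested. Whether fewer cells of a type or less RNA per cell lies behind such a change cannot be told apart in whole seedlings.

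ABA moved more bZIP members than any other hormone, and the same holds for the array as a whole. With an adjusted p under 0.05 (limma, Benjamini-Hochberg over 24100 probe sets), 6 of the 18 members rose and 6 fell, beside 48.1% of all tested probe sets (21.2% higher and 26.9% lower). At 2-fold or more there were 6 members, beside 21.7% of all probe sets. The median change of the 18 members was 0.12 log2 units, and that of all tested probe sets was -0.07. Among the 7 members without a TGA name 2 rose and 4 fell, and among the 11 with one 4 rose and 2 fell. Against control1 alone and against control2 alone 55.6% of the members were called, beside 52.9% and 49.4% of all probe sets. The same 10 members were called against both sets, in the same direction as against the 4 water arrays. These comparisons share the ABA arrays. No other hormone gave more than 2 members against the 4 water arrays. Under BAP 1 fell, beside 1.29% of probe sets called and 0.469% lower. Under SA 1 rose and 1 fell, beside 9.20% called, 4.53% higher and 4.67% lower. Under JA 1 fell, beside 5.96% called and 2.87% lower. IAA (4.14%) and ACC (0.614%) gave 0 in limma, with 4 and 5 members at an unadjusted p under 0.05, beside 21.7% and 14.7% of all tested probe sets at that threshold.

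**Figure D1:**
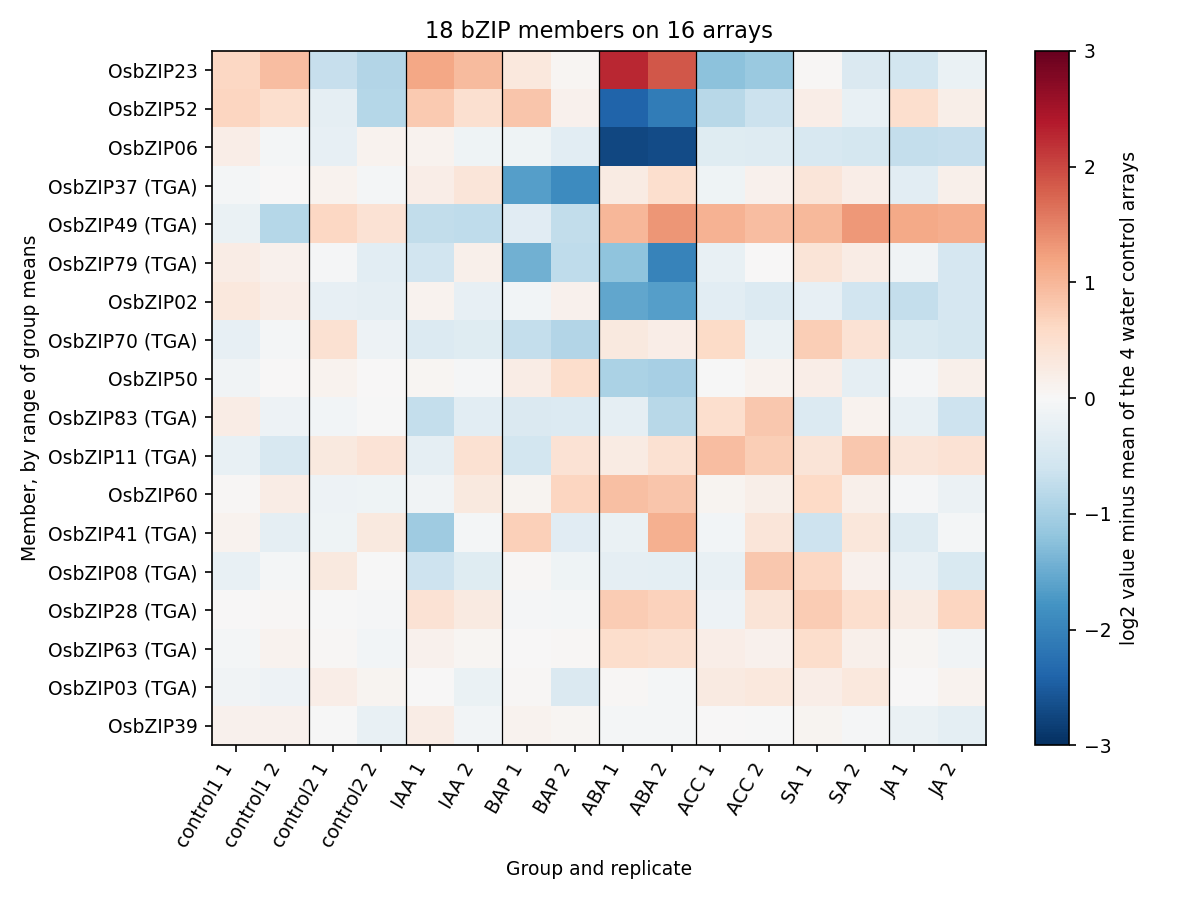
Log2 value of each of the 18 members minus its mean over the 4 water control arrays, for each of the 16 arrays (columns, replicates side by side), with members ordered by the range of their group means; (TGA) marks a TGA or LG2 synonym. The ABA columns hold the deepest reds and blues, OsbZIP37 is blue in the BAP columns, and OsbZIP49 is blue to pale in control1, IAA and BAP and red in the rest.

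OsbZIP23 (LOC4330838) is the member with an established place in ABA signalling, as an activator of ABA-responsive genes in drought. Its log2 values were 14.06 and 13.67 under ABA, 12.42 and 12.72 in control1, and 11.11 and 10.91 in control2. Both ABA arrays were above every other array, and the 2 water sets did not overlap. The transcript rose by 2.07 ± 0.43 log2 units under ABA (SE, n = 2 and 4, limma adjusted p = 0.00164), by 1.29 ± 0.19 against control1 and by 2.85 ± 0.19 against control2 (adjusted p = 0.000159 and 3.42e-07). Against the mean of the other 5 hormones, a comparison that uses no water array, it was higher by 2.17 ± 0.38 (adjusted p = 0.000513). The lowest values stood under ACC, at 10.57 and 10.68. Its ACC level was below the mean of the other hormones by a log2 difference of -1.72 ± 0.38 (adjusted p = 0.0135), and the adjusted p was 0.134 and 0.0905 without ACC replicate 1 and without ACC replicate 2. The ACC difference was -1.17 against the 4 water arrays (adjusted p = 0.236), -1.95 against control1 (adjusted p = 8.1e-05) and -0.39 against control2 (adjusted p = 0.541), the set that shares the poly-A spike-in pattern of ACC. The SA, JA and BAP differences of OsbZIP23 changed sign with the water set. SA gave -0.98 against control1 (called) and 0.59 against control2, JA -1.15 (called) and 0.41, and BAP -0.60 and 0.97 (called).

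OsbZIP06 (LOC4325139) showed the largest change of any member under any hormone when set against the 4 water arrays. It stood at 5.66 and 5.69 under ABA, against 8.59, 8.31, 8.13 and 8.50 on the 4 water arrays, with no overlap between ABA and any other group. The fall was -2.71 ± 0.14 log2 units, or 6.53-fold (limma adjusted p = 2.95e-08), and came to -2.77 against control1 and -2.64 against control2. The other groups lay closer to water, with 8.49 and 8.25 under IAA, 8.25 and 8.06 under BAP, and 8.01 and 7.99 under ACC. JA arrays read 7.66 and 7.70, below all water arrays, and the change of -0.70 ± 0.14 passed (adjusted p = 0.0125, and 0.00524 and 0.0347 against control1 and control2). Without JA replicate 1 or JA replicate 2 its adjusted p was 0.0689 or 0.123. SA arrays read 7.91 and 7.85, with a change of -0.50 ± 0.14 (adjusted p = 0.0437) that did not pass against control2 (-0.44, adjusted p = 0.113) and was lost on leaving out any of 13 arrays. The ABA level was below the mean of the other 5 hormones by a log2 difference of -2.34 ± 0.13 (adjusted p = 3.19e-08).

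OsbZIP52 (LOC4341753), also listed as RISBZ5 and known in rice as a factor whose overexpression makes plants more sensitive to cold and drought, also fell under ABA. Its values were 7.40 and 7.70 under ABA, 10.45 and 10.30 in control1, and 9.53 and 8.94 in control2. The ABA arrays were the lowest of all 16, and the control sets again did not overlap. The change was -2.26 ± 0.36 log2 units against the 4 water arrays (limma adjusted p = 0.000283), -2.83 ± 0.26 against control1 and -1.69 ± 0.26 against control2 (adjusted p = 3.49e-06 and 0.000201). OsbZIP02 (LOC4325565) read 7.28 and 7.17 under ABA, 9.15 and 9.03 in control1, and 8.59 and 8.57 in control2. Its change of -1.61 ± 0.19 (adjusted p = 2.62e-05) was -1.86 against control1 and -1.35 against control2, and every other hormone array lay between 8.12 and 8.97.

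The members of the unfolded protein response did not move as 1 group under ABA. OsbZIP50 (LOC4341554) read 8.15 and 8.10 under ABA and 8.98 to 9.19 on the water arrays, a change of -0.97 ± 0.14 log2 units (limma adjusted p = 0.000145), with -0.92 and -1.02 against control1 and control2. OsbZIP60 (LOC4344086) went the other way, with 10.22 and 10.16 under ABA against 9.37, 9.55, 9.18 and 9.20 in water. Its rise was 0.86 ± 0.18 (adjusted p = 0.00218), with 0.73 and 1.00 against the single control sets (adjusted p = 0.00898 and 0.00138). OsbZIP39 stayed between 10.87 and 11.39 on all 16 arrays, the narrowest range of group means of the 18 members (0.36), with an ABA difference of -0.06 ± 0.12 (adjusted p = 0.730). BZIP60 is a synonym of both OsbZIP50 and OsbZIP60 in the table, and the values above follow the locus. The OsbZIP39 and OsbZIP60 probe sets have the name endings _x_at and _s_at, by which Affymetrix marks probes that may match other transcripts, so their levels may not be of 1 gene alone.

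**Figure D2:**
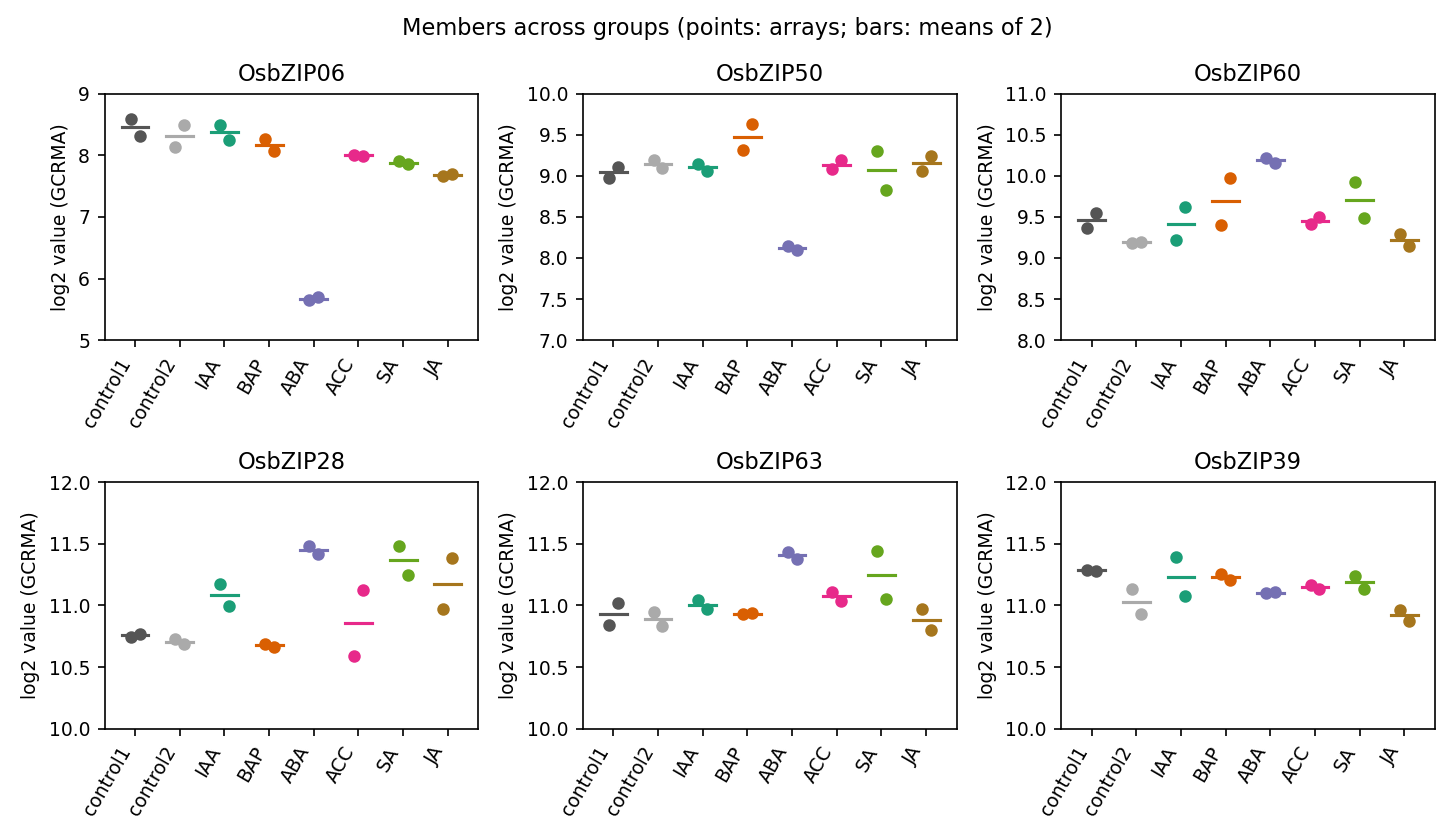
Log2 values by group for 6 members (points, single arrays; bars, means of 2 arrays; the vertical range differs between panels). ABA is lowest in OsbZIP06 (5.66 and 5.69) and OsbZIP50 (8.15 and 8.10) and highest in OsbZIP60 (10.22 and 10.16), whereas OsbZIP39 varies little between groups.

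Among the TGA-type members, OsbZIP37 (LOC9270267, also TGAL6) stood out under BAP. It is known as OsTGAP1, a regulator of diterpenoid phytoalexin synthesis in rice. It read 9.12 and 8.88 under BAP, against 10.71, 10.79, 10.86 and 10.71 on the water arrays. All 14 arrays other than BAP lay between 10.46 and 11.26, so BAP did not overlap any of them. The change was -1.77 ± 0.14 log2 units, or 3.41-fold (limma adjusted p = 6.41e-05), and was -1.75 against control1 and -1.79 against control2 (adjusted p = 0.000335 and 5.31e-05). Against the mean of the other 5 hormones it was -1.94 ± 0.13 (adjusted p = 4.17e-06), and against IAA, which shares the spike-in pattern of BAP, it was -2.05 ± 0.16 (adjusted p = 2.83e-05), where 2.87% of probe sets were called. Leaving out 1 array at a time left the fall between -1.89 and -1.65. Lsi1 and Lsi2 were also low under BAP, as given above, and their part in this result was not tested. Under ABA the 2 arrays read 11.02 and 11.26, with a difference of 0.37 ± 0.14 from water (adjusted p = 0.0446) that was not called against either control set (adjusted p = 0.0617 and 0.0894). Its probe set also ends in _s_at.

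OsbZIP79 (TGAL4, LOC4349800), whose overexpression lowers diterpenoid phytoalexins in rice cells, was low under both ABA and BAP. The values were 7.78 and 6.99 under ABA, 7.55 and 8.21 under BAP, and 9.22, 9.10, 8.95 and 8.67 in water. Both hormones lay below all water arrays, and their own arrays overlapped each other. Under ABA it fell by 1.60 ± 0.28 log2 units (limma adjusted p = 0.000498), by 1.77 against control1 and by 1.42 against control2. The change was -1.99 without ABA replicate 1 and -1.20 without ABA replicate 2, both called. Under BAP the difference of -1.10 ± 0.28 did not pass against the 4 water arrays (adjusted p = 0.0865) or control1 (-1.28, adjusted p = 0.0823) and passed against control2 (-0.93, adjusted p = 0.0450). SA arrays, at 9.36 and 9.22, were the highest of any hormone, above the mean of the other 5 hormones by 0.97 ± 0.25 (adjusted p = 0.0395, lost on leaving out any of 8 arrays). That mean includes the low ABA and BAP groups. Against the 4 water arrays the SA difference was 0.30 (adjusted p = 0.539), and it was called against neither control set (adjusted p = 0.798 and 0.376).

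OsbZIP70 (TGAL7) and OsbZIP83 (TGAL11) varied within 1.38 and 1.20 log2 units of group mean. OsbZIP70 read 7.11 and 6.95 under BAP, the lowest of the 16 arrays, against 7.58 to 8.28 in water, and the difference of -0.79 ± 0.23 did not pass (limma adjusted p = 0.137), while that against control2 did (-0.94, adjusted p = 0.0180). It was lower under BAP than the mean of the other 5 hormones by a log2 difference of -0.82 ± 0.20 (adjusted p = 0.0145), which did not pass without BAP replicate 1 or without BAP replicate 2. That mean includes SA, where OsbZIP70 was highest (mean 8.41). Under SA OsbZIP70 was above the mean of the other 5 hormones by 0.83 ± 0.20 (adjusted p = 0.0317), and by 0.67 without SA replicate 1. Against the 4 water arrays its SA difference was 0.58 (adjusted p = 0.128). It was 0.73 against control1 (adjusted p = 0.0448) and 0.44 against control2 (adjusted p = 0.317). OsbZIP83 read 7.84 and 8.14 under ACC, the 2 highest of its 16 values, against 7.19 to 7.56 in water. That difference was 0.65 ± 0.21 with adjusted p = 0.196, while ACC was above the mean of the other 5 hormones by 1.07 ± 0.19 (adjusted p = 0.00474, and 0.0734 without ACC replicate 2). Both OsbZIP83 values under each of IAA, BAP, JA and ABA lay below all water arrays. The IAA, BAP and JA differences were -0.52, -0.43 and -0.42, none called (adjusted p = 0.183, 0.402 and 0.284). Under ABA OsbZIP83 read 7.07 and 6.51, a change of -0.55 ± 0.21 with adjusted p = 0.0496. The ABA difference from the mean of the other 5 hormones was -0.38 and did not pass (adjusted p = 0.121). Against control1 and control2 alone the adjusted p of the ABA change was 0.0645 and 0.107, and without ABA replicate 2 the change was -0.26.

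**Figure D3:**
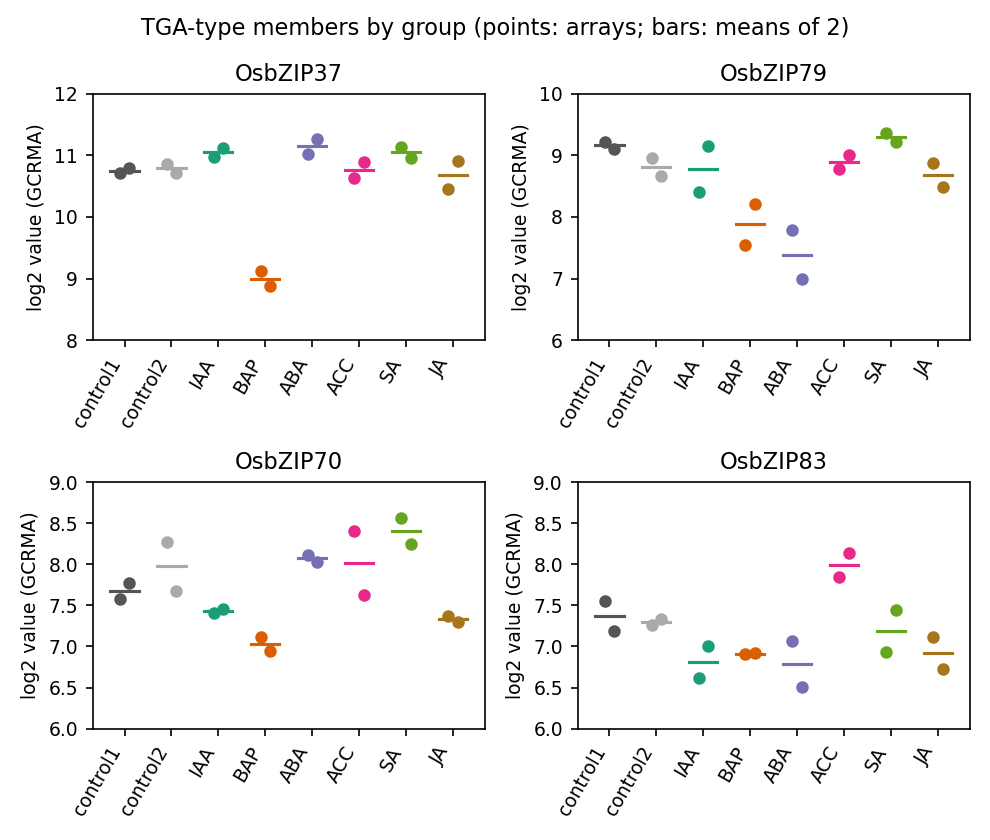
Log2 values by group for 4 TGA-type members (points, single arrays; bars, means of 2 arrays; the vertical range differs between panels). OsbZIP37 is low under BAP (9.12 and 8.88), OsbZIP79 under BAP and ABA, OsbZIP70 is lowest under BAP and OsbZIP83 is highest under ACC.

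The 4 members with a numbered OsNIF synonym were OsbZIP28 (TGA2.2), OsbZIP63 (TGA2.1), OsbZIP03 (TGA2.3) and OsbZIP08 (TGAL1 and TGAL2), of which the TGA2 proteins bind the NPR1 homologue NH1 in rice. OsbZIP28 read 11.48 and 11.42 under ABA and 10.69 to 10.77 in water, a rise of 0.72 ± 0.15 log2 units (limma adjusted p = 0.00180), close to equal against control1 (0.69) and control2 (0.74). It also rose under SA, with 11.48 and 11.25, by 0.63 ± 0.15 (adjusted p = 0.0223, and 0.0214 and 0.0335 against the single sets). Without SA replicate 1 or SA replicate 2 the SA change was 0.52 or 0.75 and did not pass (adjusted p = 0.239 and 0.0549). OsbZIP63 read 11.43 and 11.38 under ABA and 10.83 to 11.02 in water, a rise of 0.50 ± 0.11 (adjusted p = 0.00277). Under SA its arrays read 11.44 and 11.05, and the difference of 0.34 ± 0.11 did not pass (adjusted p = 0.0763). OsbZIP03 and OsbZIP08 passed under no hormone against the 4 water arrays, with values from 9.94 to 10.68 and from 5.85 to 7.27. Of the partners, NH1 rose under JA by 1.83 ± 0.28 (adjusted p = 0.00293). NH2 rose under SA by 0.89 ± 0.10 (adjusted p = 0.000378) and under IAA by 0.41 ± 0.10 (adjusted p = 0.0462, and 0.0850 against control1). NH1 and NH3 fell under ABA by 1.28 and 1.66 (adjusted p = 0.00236 and 0.000669), beside 48.1% of probe sets called. Against control1 and control2 the ABA change of NH1 was -1.63 and -0.93, and that of NH3 was -1.33 and -2.00.

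OsbZIP11 (LG2, named after liguleless2 of maize) and OsbZIP41 (TGAL5) lay near the bottom of the measured range. OsbZIP11 exceeded a log2 value of 5 on 5 arrays and OsbZIP41 on 2, so each passed the filter through its highest arrays. OsbZIP41 ran from 3.50 to 5.64 with an SD within groups of 0.58, the widest of the 18, and no difference from the 4 water arrays passed. OsbZIP11 read 5.47 and 5.28 under ACC against 4.07 to 4.97 in water, a difference of 0.83 ± 0.32 (limma adjusted p = 0.265). The ACC difference was 1.18 against control1 (adjusted p = 0.0188) and 0.47 against control2 (adjusted p = 0.681). That under SA was 0.96 against control1 (adjusted p = 0.0406) and 0.25 against control2 (adjusted p = 0.691). The second OsbZIP11 probe set ran from 2.48 to 5.12 and gave 0.36 under ACC (adjusted p = 0.834).

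Some members differed between the water sets themselves. Of the 18, 1 was higher and 3 were lower in control2 than in control1, beside 9.20% and 11.9% of all probe sets. OsbZIP23 differed by -1.56 ± 0.19 log2 units (control1 mean 12.57, control2 mean 11.01, limma adjusted p = 0.000443) and OsbZIP52 by -1.14 ± 0.26 (10.37 and 9.24, adjusted p = 0.00995). OsbZIP02 differed by -0.51 ± 0.16 (adjusted p = 0.0426) and OsbZIP49 by 1.06 ± 0.23 (5.30 and 6.35, adjusted p = 0.00815). The OsbZIP49 difference was 0.72 without control1 replicate 2 (adjusted p = 0.0926), the OsbZIP52 difference was -0.84 without control2 replicate 2 (adjusted p = 0.0989) and did not pass without control1 replicate 1 or control1 replicate 2 (0.0608 and 0.0510), and that of OsbZIP02 was lost on leaving out any of 6 arrays.

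OsbZIP49 (TGAL8, LOC4341530) was split in the same way as the poly-A spike-ins over the whole series. It read 5.63 and 4.97 in control1, 5.08 and 5.07 under IAA and 5.48 and 5.10 under BAP, against 6.44 and 6.27 in control2, 6.83 and 7.15 under ABA, 6.87 and 6.74 under ACC, 6.79 and 7.13 under SA, and 6.97 and 6.93 under JA. The 6 arrays of the first spike-in pattern did not overlap the other 10. Its rise under ABA was 1.16 ± 0.33 against the 4 water arrays (limma adjusted p = 0.0115), 1.69 against control1 and 0.63 against control2 (adjusted p = 7.67e-05 and 0.0375), and the adjusted p was 0.107 without ABA replicate 2. ACC, SA and JA gave 1.51, 1.66 and 1.65 against control1, all called, and 0.45, 0.60 and 0.59 against control2, none called. IAA and BAP gave -1.28 and -1.07 against control2, both called, with differences from control1 of -0.22 and -0.01. The part of the spike-in pattern in these values was not tested. Against control1 alone ACC, SA and JA gave 6, 8 and 5 called members (23.9%, 28.7% and 23.9% of probe sets), and against control2 alone 0, 1 and 1 (0.340%, 9.65% and 6.80%). For IAA and BAP the counts were 0 and 1 against control1 (2.37% and 1.09%) and 3 and 6 against control2 (31.6% and 24.0%).

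**Figure D4:**
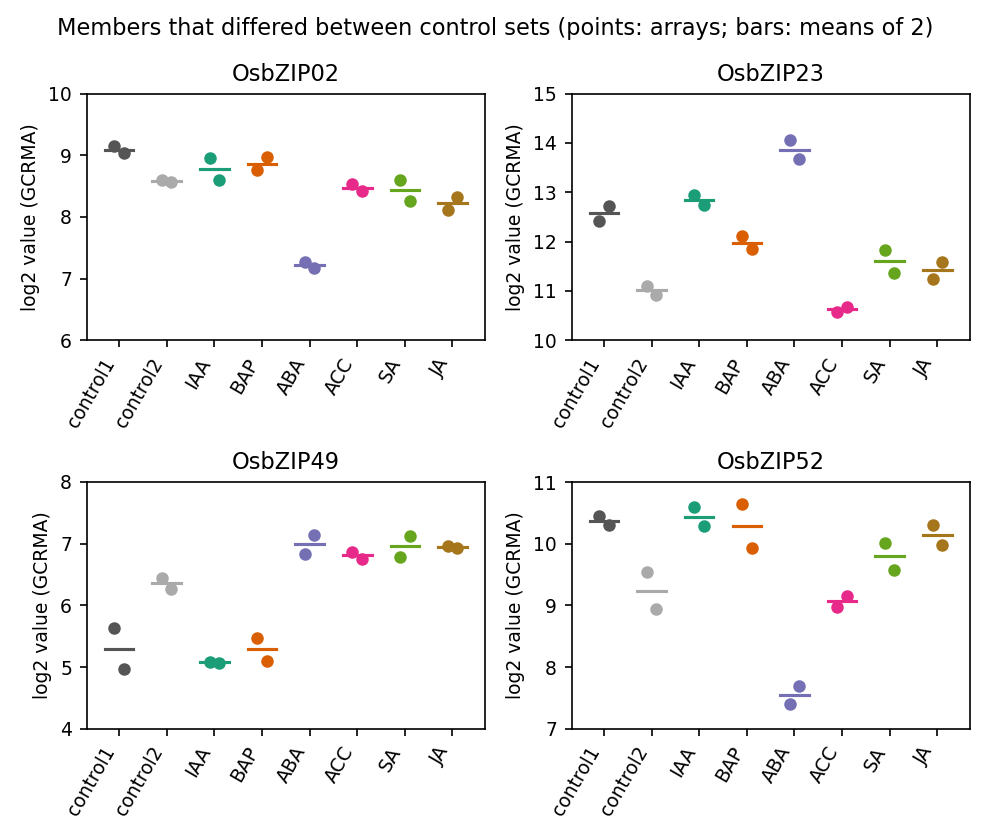
Log2 values by group for the 4 members called between the water control sets (points, single arrays; bars, means of 2 arrays; the vertical range differs between panels). OsbZIP49 is low in control1, IAA and BAP (4.97 to 5.63) and higher in all other groups, while OsbZIP23 and OsbZIP52 are higher in control1 than in control2, with ABA outside both.

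The 10 members called under ABA against each water set were also called in the same direction against the mean of the other 5 hormones. Both comparisons use the same ABA arrays. The 49.6% called there is of all probe sets, not of those already called against water, so the 10 calls are no separate support. In that comparison the call of OsbZIP49 (0.77 log2 units, limma adjusted p = 0.0453) was lost on leaving out any of 12 arrays. The call of OsbZIP28 (0.42) was lost without ABA replicate 1 or ABA replicate 2 (adjusted p = 0.137 and 0.0957), and that of OsbZIP63 (0.38) without ABA replicate 1 (0.0713). Against ACC, where 40.7% of all probe sets were called, the same limit holds. Of the 10 members, 8 were called there, namely OsbZIP23, OsbZIP28 and OsbZIP60 as higher and OsbZIP02, OsbZIP06, OsbZIP50, OsbZIP52 and OsbZIP79 as lower. OsbZIP49 and OsbZIP63 were not, with ABA minus ACC at 0.18 (adjusted p = 0.749) and 0.33 (adjusted p = 0.0543). The size depended on the water set most for OsbZIP23, OsbZIP49 and OsbZIP52, the members that lie farthest from the diagonal in the plot of both ABA comparisons.

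**Figure D5:**
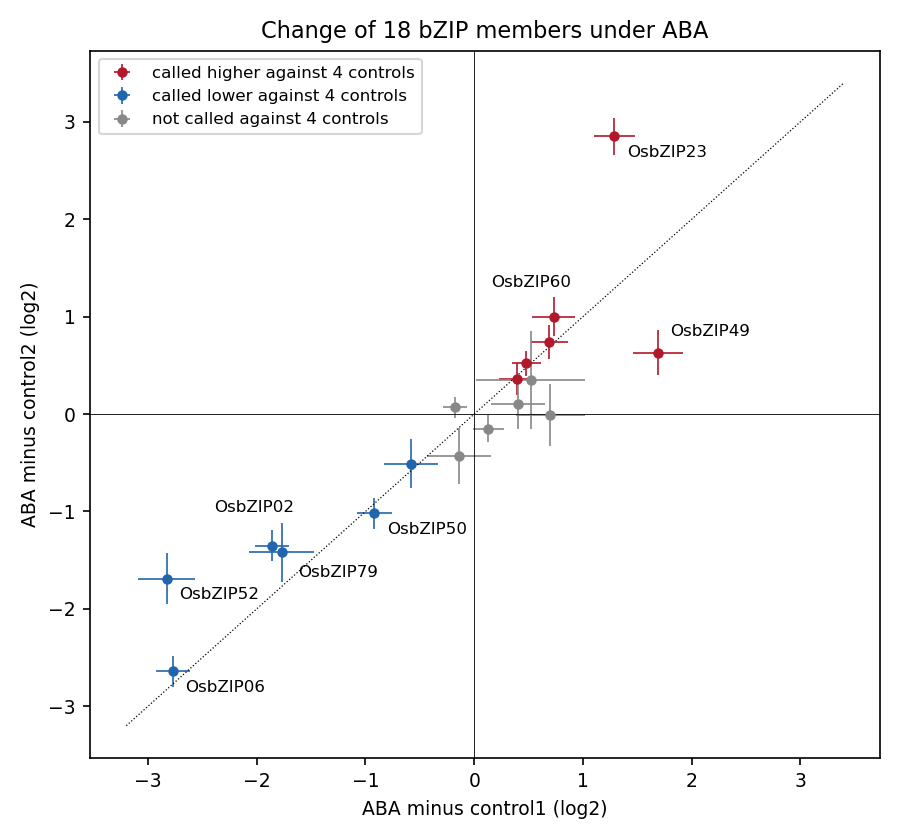
Change of each of the 18 members under ABA against control1 (horizontal axis, log2) and against control2 (vertical axis, log2), with bars of 1 SE; the dotted line marks equal change and colour marks the call against all 4 water arrays. OsbZIP06 lies at -2.77 and -2.64, near the line, and OsbZIP23 at 1.29 and 2.85, away from it.

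Each hormone was also set against the mean of the other 5, a comparison free of water arrays. It called 5 members for IAA (25.4% of probe sets), 7 for BAP (21.6%), 11 for ABA (49.6%), 3 for ACC (11.8%), 3 for SA (5.85%) and 0 for JA (12.7%) in limma. The ABA shares of members and of all probe sets were 61.1% and 49.6%. OsbZIP52 was higher under IAA, at 10.59 and 10.28, by 1.07 ± 0.32 log2 units (adjusted p = 0.0313), a call lost on leaving out any of 4 arrays. The mean of the other 5 includes ABA, where OsbZIP52 was lowest (mean 7.55). Against the 4 water arrays its IAA difference was 0.63 (adjusted p = 0.328). It was 0.06 against control1 (adjusted p = 0.958) and 1.20 against control2 (adjusted p = 0.00471). OsbZIP49 was lower under IAA by a log2 difference of -1.52 ± 0.29 (adjusted p = 0.00476, and 0.0610 without IAA replicate 1) and under BAP by -1.27 ± 0.29 (adjusted p = 0.0112, and 0.152 without BAP replicate 2). Both hormones share the poly-A spike-in pattern in which OsbZIP49 was low.

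The kinases and partners of the family were followed by name. Of 10 SnRK2 kinase genes, SAPK1 to SAPK10, 5 rose and 3 fell under ABA, beside the 48.1% of probe sets called. SAPK1 rose by 2.49 ± 0.18 log2 units (2.25 and 2.73 against control1 and control2, limma adjusted p = 4.29e-07) and SAPK10 by 1.74 ± 0.18 (adjusted p = 1.17e-05), while SAPK2 fell by 1.38 ± 0.14 (adjusted p = 1.06e-05). Under SA 2 rose and 1 fell (9.20% of probe sets called), under JA 1 rose and 1 fell (5.96%), and IAA, BAP and ACC gave none. The called rises also passed against each control set. The falls of SAPK2 under SA (-0.41, adjusted p = 0.123) and of SAPK7 under JA (-0.53, adjusted p = 0.0578) did not pass against control2. Nor did the fall of SAPK7 under ABA (-0.36, adjusted p = 0.0677). Of 7 measured genes for 14-3-3 proteins, which bind phosphorylated bZIP factors, 4 fell and 1 rose under ABA, again beside 48.1% of probe sets called. GF14E changed by -0.85 ± 0.10 (adjusted p = 1.83e-05). Against control2 alone 3 fell and 1 rose, beside 49.4% called, with GF14A at -0.23 (adjusted p = 0.0694). In control2 against control1 4 of the same 7 were also lower and 1 was higher, beside 11.9% and 9.20% of all probe sets. Under SA 2 fell against the 4 water arrays, GF14C (-0.47) and GF14E (-0.34), beside 4.67% lower. None passed under SA against control2, where 9.65% of probe sets were called. The 1 ABA receptor gene matched by name, PYL11, fell by 0.95 ± 0.14 (adjusted p = 0.000167).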

How the data were processed

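Total RNA of rice seedlings was hybridized as biotinylated cRNA, 1 sample per array, per the labels' protocols. The deposited values are 1 log2 number per probe set and array, made by the authors with GCRMA (background correction, normalization between arrays and probe summary), per the submitters' processing notes. No version of GCRMA was given, the scale was taken as log2 from the range of the values, and folds near the bottom of the scale depend on that background step. No raw signals were used, and the number of arrays limits the precision.

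Genes were matched through the platform annotation and the RefSeq gene table (assembly ASM3414082v1), with 1 probe set per gene, that of the highest mean. Coordinates and sequences were not used here. Of 57194 rice probe sets, 24100 exceeded a log2 value of 5 on at least 2 arrays and were fitted with limma 3.58.1 in R 4.3.3 (lmFit, eBayes with an intensity trend, two-sided). The main fit had 7 groups, with the 4 water arrays as 1 (9 residual degrees of freedom), and a fit with 8 groups (8 residual degrees of freedom) served for single control sets. Adjustment was by Benjamini-Hochberg over all tested probe sets per comparison, with a threshold of 0.05.

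Members with values in full were OsbZIP37, the pairs of member and hormone with at least 2-fold change, an adjusted p under 0.05 and both treated arrays outside the water range, members of the role lists (ABA-related, of which OsbZIP23 alone was measured under a bZIP name, unfolded protein response, HY5-like, group C, low temperature, TGA type and OSBZ8), up to 5 per hormone called with at least 2-fold difference from the other hormones, and up to 5 called between control sets. No HY5-like, low-temperature or OSBZ8 list member matched a measured gene here. Other members named were chosen after their values were seen. Members and lists were chosen with earlier results of these data known. Comparisons of BAP with IAA and of ABA with ACC were chosen after seeing the data. So was that of each hormone with the water set taken as its match by poly-A spike-ins (control1 for IAA and BAP, control2 for the rest). The fit was tested on simulated data. Alternatives were quantile normalization, median centring, no filter, a log2 filter of 7, no trend, a 2-fold minimum, single control sets, a replicate block, and fits without 1 array at a time.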

Additional observations from a re-analysis of the deposited data

How the results depend on the processing

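None of the 49 called differences of single members for which the alternatives were run reversed its direction. Differences not called against the 4 water arrays could change sign with the water set, as those of OsbZIP23 under BAP, SA and JA did. Against the 4 water arrays, the count for ABA (12) was 9 to 11 on leaving out 1 array and 6 with a 2-fold minimum. The poly-A values of SA (-0.99 and -1.17) lay between those of control1 (-1.31 and -1.34) and control2 (-0.69 and -0.63). The count for SA (2) was 0 without the filter, 0 with a 2-fold minimum and 1 with the replicate block. The SA count was 8 against control1, 1 against control2 (also the set taken as its spike-in match) and 4 without control2 replicate 1. That for JA (1) was 0 with a 2-fold minimum, 5 against control1 and 0 to 3 on leaving out 1 array. ACC (0) gave 6 against control1. IAA (0) gave 3 against control2 and 0 to 2 on leaving out 1 array, and BAP (1) gave 6 against control2 and 1 on leaving out any array. Against the other 5 hormones, leaving out 1 array gave 8 to 11 for ABA (11), 2 to 9 for BAP (7), 1 to 6 for IAA (5), 0 to 3 for ACC (3), 0 to 3 for SA (3) and 0 to 1 for JA (0), and no filter gave 3 for IAA and 0 for SA. Between control sets (4) it was 1 to 4. Where a group kept 1 array, that array was assumed to vary like the other groups.

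Same-numbered replicates were not treated as pairs: their deviations correlated with r from -0.19 to 0.45 (median 0.04) over 28 pairs of groups, 10 of them over 0.1, and the labels name nothing that a number shares. The replicate block took the SA call of OsbZIP06 to adjusted p = 0.0524, the ABA call of OsbZIP83 to 0.0613 and, against the other hormones, the ABA call of OsbZIP49 to 0.0549 and the SA call of OsbZIP79 to 0.0534. The ABA calls of OsbZIP37 and OsbZIP83 were lost with quantile normalization (adjusted p = 0.0616 and 0.0670), without the filter (0.0978 and 0.106) and against each control set. The cause of these shifts was not tested. A stricter filter (log2 of 7) kept 16 of 18 members.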
